A study of Mus musculus with 23 samples.

Results

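Interferon-stimulated genes are the transcripts that cells raise after interferon binds its receptor. The set followed here holds 41 genes in 6 roles, namely sensors of foreign nucleic acid, signalling and transcription factors, the ISG15 system with its ubiquitin ligases, antiviral effectors, other induced genes and antigen processing. Its members were listed by symbol and matched to the gene identifiers of the count tables, and reads were summed over the transcripts of each gene. All 41 members were listed in the crush libraries among 42451 genes with a symbol. In the libraries of the inducible knockouts (iKO), 40 members were listed among 22647 genes, and Mx2 was not listed.

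Long RNA of mouse sciatic nerve (SN) was sequenced in 7 groups from 2 experiments. In the iKO experiment, Cre-ERT2 was driven by the P0-Cx32 transgene, which recombines floxed alleles in myelinating Schwann cells (SCs) of the adult, so that macrophages, fibroblasts and endothelial cells of the nerve keep their alleles. Dicer iKO nerves (P0-CreERT2 -/+ Dicer flox/flox, n = 3) and Dgcr8 iKO nerves (P0-CreERT2 -/+ Dgcr8 flox/flox, n = 3) were each set against Cre-negative mice with the same homozygous floxed allele (n = 3 each). All 4 groups had received tamoxifen at 8 to 10 weeks of age and were collected 3 months later (3 mpT), in either gender. The mutants sequenced had been preselected for an affected morphology. The floxed lines had been backcrossed to C57BL/6J for at least 6 generations, and the Cre line for more than 10. In the crush experiment, 2-month-old male C57BL/6J mice with no engineered allele gave crushed nerves 3 days after crush (3 dpc, a 7 mm piece distal to the lesion, n = 4), contralateral nerves (n = 4) and uncrushed nerves of the surgery control (n = 3). By the study's methods each library of a group came from a separate mouse. The contralateral nerve was taken from the uninjured side of crushed mice, so the crushed and contralateral groups share mice. Which of their libraries belong to the same mouse is not given in the sources used here, and they were compared unpaired.

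Type I interferons bind the receptor pair Ifnar1 and Ifnar2, and interferon gamma binds Ifngr1 and Ifngr2. The receptor-bound kinases then activate transcription factors, among them Stat2, which with Irf9 binds the interferon-stimulated response element (ISRE) in the promoters of many members. The products block viral translation, degrade viral RNA or tag proteins with the ubiquitin-like modifier Isg15. Dicer and Dgcr8 act at successive steps of miRNA production: Dgcr8 with Drosha cuts the primary transcript in the nucleus, and Dicer cuts the hairpin in the cytoplasm.

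Because the ISRE is what many of these genes share in sequence, the promoters of members were searched for GAAANNGAAA on both strands, from 250 bases before to 50 bases after the start in RefSeq on GRCm38.p6. A promoter entry matched 30 of 41 members, and 13 of those 30 (43.3%) held the motif, against 1079 of 27025 genes (3.99%) and 1131 of 32851 promoters (3.44%). The motif was held by 8 of 13 antiviral effectors with an entry, 2 of 3 sensors, 2 of 4 genes of the ISG15 group and 1 of 5 signalling genes (Stat2), and by 0 of 3 other induced genes and 0 of 2 antigen processing genes. Overlapping matches were each counted, and a match is a description of these letters and not a bound site. The 7 windows below belong to members with distinct behaviour in the nerve: Ifit1, Ifit3 and Isg15, which fell after crush, Rsad2, which was called lower against uncrushed nerves, and Oas1a, Trim30a and Eif2ak2, which rose in Dgcr8 iKO nerves. They are printed 5′ to 3′ on the gene's strand, with the motif or its reverse complement in capitals, at chr19:34640769-34640828 (plus strand) for Ifit1, chr19:34583365-34583424 (plus) for Ifit3, chr4:156200856-156200915 (minus) for Isg15, chr12:26456538-26456597 (minus) for Rsad2, chr5:120907526-120907585 (minus) for Oas1a, chr7:104465195-104465254 (minus) for Trim30a and chr17:78882535-78882564 (minus) for Eif2ak2.
Ifit1: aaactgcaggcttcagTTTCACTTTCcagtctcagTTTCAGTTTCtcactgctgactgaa
Ifit3: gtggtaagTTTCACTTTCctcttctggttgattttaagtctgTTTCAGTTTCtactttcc
Isg15: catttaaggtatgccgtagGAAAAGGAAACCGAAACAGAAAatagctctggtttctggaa
Rsad2: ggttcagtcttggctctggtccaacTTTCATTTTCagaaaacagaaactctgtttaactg
Oas1a: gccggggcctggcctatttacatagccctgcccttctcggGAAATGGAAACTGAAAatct
Trim30a: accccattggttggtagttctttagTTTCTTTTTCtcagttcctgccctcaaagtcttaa
Eif2ak2: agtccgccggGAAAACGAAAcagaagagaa
In Ifit1 and Ifit3 the paired motifs read on the opposite strand, 104 and 85 bases before the start of Ifit1 and 156 and 122 bases before that of Ifit3. In Isg15, 3 overlapping motifs run together, the first beginning 78 bases and the last 66 bases before the start. In Eif2ak2 the motif begins 18 bases after the start.

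The libraries held 5594838 to 10143207 counts in the iKO experiment and 6617600 to 12805921 in the crush experiment, so that the limit set by 3 counts was 0.285 to 0.522 CPM (counts scaled to a common library size, with edgeR's trimmed mean of M-values, TMM) and 0.233 to 0.458 CPM. Levels are not compared between the experiments, whose library kits differ by the labels. Dicer1 mRNA did not pass the test in Dicer iKO nerves (log2 fold change -0.11 ± 0.08 SE, adjusted p = 0.357), nor did Dgcr8 mRNA in Dgcr8 iKO nerves (0.23 ± 0.14, adjusted p = 0.233). Both values are per gene over the whole nerve and were not resolved to the floxed exons. By real-time PCR the paper reports lower Dicer mRNA in Dicer iKO, lower Dgcr8 mRNA in Dgcr8 iKO and less of an abundant miRNA in both. The summed level of 14 macrophage markers was 429 to 1440 CPM in Dicer controls and 4597 to 8556 CPM in Dicer iKO, 433.1 to 511.4 CPM in Dgcr8 controls and 3183 to 7950 CPM in Dgcr8 iKO, and 141 to 256.2 CPM in contralateral, 181.1 to 225.4 CPM in uncrushed and 970.9 to 2231 CPM in crushed nerves. Of these 14 markers, 11 rose in Dicer iKO, against 7.37% of all genes, and 12 in Dgcr8 iKO, against 13.4%. After crush 14 rose, where 14.6% of all genes rose against contralateral and 15.3% against uncrushed nerves. The 8 SC markers summed to 28080 to 46930 CPM in Dicer controls, 22520 to 27610 in Dicer iKO, 42460 to 46200 in Dgcr8 controls, 14830 to 28600 in Dgcr8 iKO, 36420 to 55490 in unlesioned nerves and 2166 to 3304 in crushed nerves. The 8 T and NK cell markers summed to 13.79 to 30.63 CPM over the mutants and 0.6789 to 7.238 CPM over their controls, with Cd4, which macrophages can also carry, the most abundant in the mutants. The 6 neutrophil markers summed to 39.9 to 53.39 CPM in crushed, 23.65 to 33.49 in contralateral and 34.59 to 46.87 in uncrushed nerves, where Retnlg went from 0 counts in every contralateral library to 112 to 227 counts after crush and Cxcr2, the most abundant, stood at 223 to 274 counts in contralateral and 162 to 217 counts in crushed nerves. Over the iKO experiment they lay between 25.14 and 62.73 CPM, with Ly6g at 0 in all 12 libraries. The 5 fibroblast markers summed to 5370 to 14150 CPM in Dicer controls, 16740 to 17340 in Dicer iKO, 6211 to 7796 in Dgcr8 controls and 12900 to 16090 in Dgcr8 iKO. The 5 endothelial markers summed to 233.1 to 249.1, 157.6 to 171.4, 244.5 to 278.4 and 157.6 to 217.4 CPM in the same order. Fat markers set apart Dicer control replicate 2 (Adipoq 76 counts, Cidec 84) and Dgcr8 iKO replicate 2 (74 and 81) from the other iKO experiment libraries, at most 8 and 11 counts. In nerve homogenates, a change in the number of cells of a type and a change in RNA per cell cannot be told apart. The part of these cell types in the results below was not tested.

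In control nerves the members spanned a wide range of levels. On the per-length scale (TPM, length-normalised transcript shares), the highest was Ifitm3, which blocks entry of enveloped viruses, at 220 ± 46.1 TPM (SD, n = 3) in Dicer controls and 190 ± 7.46 TPM in Dgcr8 controls. Ifi27, a mitochondrial interferon-induced protein, followed at 136 ± 12.5 and 148 ± 21.0 TPM, more than 1 SD from both Ifitm3 and Ifit3. Ifit3, a partner of Ifit1 in the complex that binds viral RNA, stood at 81.6 ± 26.8 and 67.2 ± 3.21 TPM. Near the other end lay Oas3, which makes the oligoadenylates that switch on RNase L, at 0.39 ± 0.21 and 0.58 ± 0.25 TPM. Several members of the set were thus well expressed in unlesioned nerve, while Oas3, Oasl1, Oas2, Mx1 and Ifi44 were near the limit of these libraries. Ifit3 shares long stretches with Ifit3b, and the Ifit, Oas, Mx and Ifi200 genes share sequence with their neighbours, so how the estimation step divided reads among them is uncertain.

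With loss of Dicer in adult SCs, most members were not called. A member was called when its edgeR quasi-likelihood test gave a Benjamini-Hochberg adjusted p of at most 0.05 over all genes tested and a change of at least 2-fold. Of 39 members tested in Dicer iKO nerves, 2 rose (Ifngr2 and Ifi204) against 7.37% of all genes, and 1 fell (Ifi202b) against 1.64%. By adjusted p alone, 9 members were higher, against 12.3% of all genes, and 1 lower, against 8.88%. That count of 9 was 3 without Dicer control replicate 2 (Ifi204, Ifngr2 and Parp14), 5 without Dicer iKO replicate 2, 4 without Dicer iKO replicate 3, and 3 with a replicate block. The median log2 fold change was 0.34 over the 39 members and -0.01 over all 13045 genes, and 29 of the 39 values were above 0. By role, 1 of 5 signalling genes and 1 of 6 sensors rose and 1 sensor fell, while 0 of 14 antiviral effectors, 0 of 5 genes of the ISG15 group, 0 of 7 other induced genes and 0 of 2 antigen processing genes were called. The number of rising members depended on Dicer iKO replicate 1: without it 7 rose, adding Bst2, Oas1a, Parp14, Tap1 and Trim30a. Without Dicer control replicate 2, 2 members fell, and the second of them was Rsad2.

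Ifngr2, the signalling chain of the interferon gamma receptor, gave the tightest increase. It was read at 31.3, 31.2 and 32.3 CPM in the 3 Dicer controls and at 73.6, 71.8 and 71.6 CPM in the 3 Dicer iKO nerves. The mutant values lay close together and all above the controls, with a log2 fold change of 1.20 ± 0.09 (adjusted p = 0.00111). Ifi204, a nuclear DNA sensor of the Ifi200 family, was at 13.2, 14.0 and 12.1 CPM in controls and 25.3, 35.3 and 24.2 CPM in Dicer iKO. The groups did not overlap (1.11 ± 0.18, adjusted p = 0.00662), and the iKO replicate 2 was the highest. Without that library the difference was 0.94 (adjusted p = 0.0264), under 2-fold.

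Isg15, Stat2 and the Ifit genes, known as core responders to type I interferon, were not called in Dicer iKO nerves. Isg15, the ubiquitin-like modifier, was at 4.88, 2.94 and 5.84 CPM in controls and 4.24, 6.43 and 4.04 CPM in Dicer iKO, with overlapping groups (0.10 ± 0.34, adjusted p = 0.85). Stat2, the transcription factor specific to type I and III signalling, was at 14.6, 17.8 and 23.9 CPM against 22.1, 21.2 and 19.2 CPM, again overlapping (0.16, adjusted p = 0.595). Irf1, a transcription factor induced by interferon gamma, was at 31.4, 19.5 and 28.2 CPM against 33.3, 37.4 and 30.8 CPM, where a single mutant value fell below the highest control (0.36, adjusted p = 0.2). Rsad2, the antiviral enzyme viperin, had the lowest fold change after Ifi202b at -1.46 ± 0.50 (adjusted p = 0.0751), and Ifit1, Ifit2 and Ifit3 had values of -0.38, -0.67 and -0.18, none past the threshold. Mx1, whose gene carries an inactivating change in most laboratory strains, had a value of 0.34. Herc6 (0.72) and the tetherin gene Bst2 (0.85) were higher by adjusted p but by less than 2-fold. The members that missed the adjusted p lay between -1.46 (Rsad2) and 1.09 (Zbp1), and both of these ends were past 2-fold. Oasl1 did not pass the count filter.

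**Figure D1:**
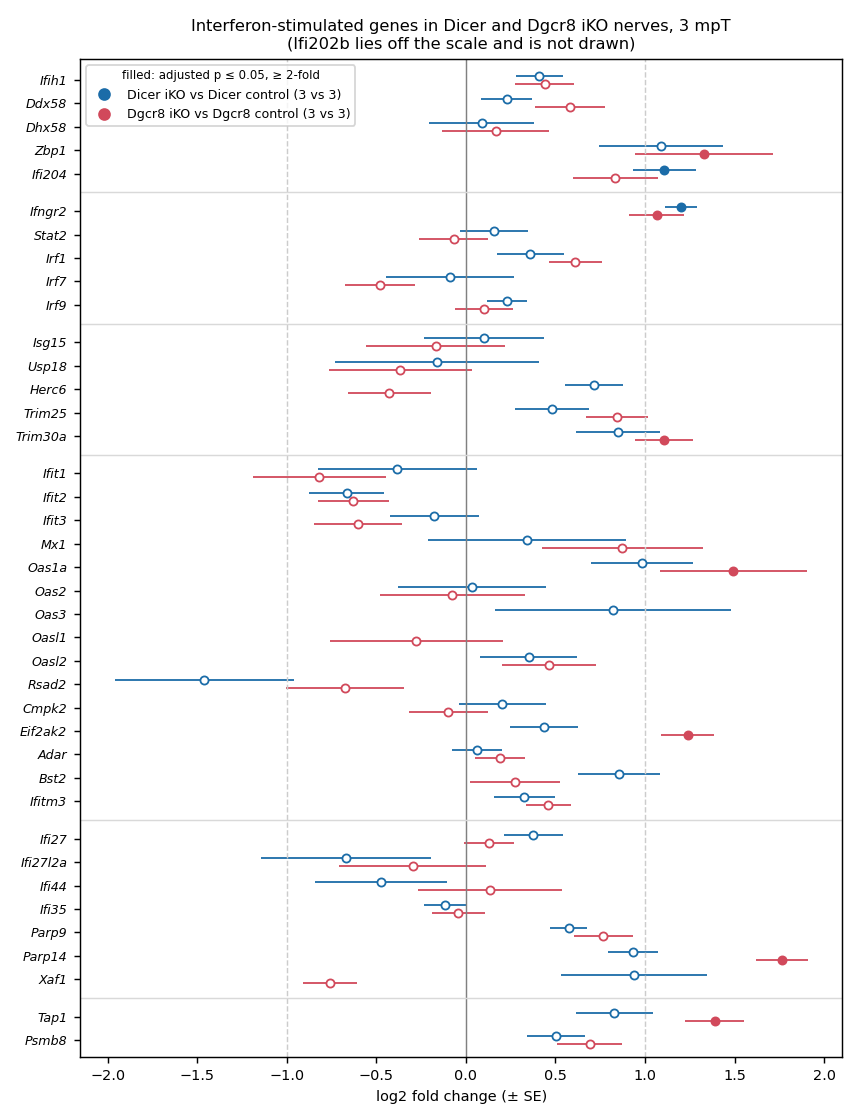
Log2 fold change of each tested member (points, ± SE, x axis; Ifi202b is off the scale) in Dicer iKO and Dgcr8 iKO nerves against their own controls (n = 3 each), grouped by role on the y axis; filled points passed an adjusted p of 0.05 and 2-fold. Most points lie right of 0 in both mutants, with Ifngr2 at 1.20 and 1.07, Parp14 at 0.93 and 1.76 and the Ifit genes left of 0.

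In Dgcr8 iKO nerves calls were spread over all 6 roles. Of 38 members tested, 7 rose, namely Parp14, Oas1a, Tap1, Zbp1, Eif2ak2, Trim30a and Ifngr2, against 13.4% of all genes, and 0 fell, against 6.99%. By adjusted p alone 15 members were higher (23.9% of all genes) and 2 lower, Xaf1 and Ifit2 (20.6%). The median was 0.18 over the 38 members and -0.01 over all 13252 genes, and 23 values were above 0 and 15 below. These were 2 of 14 antiviral effectors and 1 gene each among 5 sensors, 5 signalling genes, 5 genes of the ISG15 group, 7 other induced genes and 2 antigen processing genes. Beside the count of 0 falling members under edgeR, 20 members had an unadjusted p under 0.05 in either direction. The share of all genes at that unadjusted p was not computed. It includes the 23.9% and 20.6% of all genes past the adjusted p alone, so the 20 are not read as a result about the members. DESeq2 also called 0 falling members. Without Dgcr8 iKO replicate 2, however, 3 members fell (Ifit1, Ifit3 and Rsad2) and 6 were lower by adjusted p alone. That library held the fat markers given above. Some T and NK cell markers were higher in it than in replicates 1 and 3 (Cd3g 37 counts against 11 and 10, Nkg7 49 against 22 and 8), but Cd4 was lower (101 against 113 and 188). The summed T and NK cell markers were at 21.41, 28.47 and 29.82 CPM in Dgcr8 iKO replicates 1 to 3, so replicate 2 was not the highest. The part of these cells in the result was not tested. Without Dgcr8 control replicate 1, 9 members in place of 15 were higher by adjusted p alone.

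Parp14, a mono-ADP-ribosyltransferase, had the largest change. It was at 67.8, 58.8 and 68.9 CPM in Dgcr8 controls and 185, 233 and 248 CPM in Dgcr8 iKO. Every mutant lay far above the highest control, with a log2 fold change of 1.76 ± 0.14 (adjusted p = 7.43e-06). In Dicer iKO nerves Parp14 was at 108, 140 and 119 CPM against 57.4, 60.7 and 74.7 CPM in controls (0.93 ± 0.14, adjusted p = 0.00576), without overlap but short of 2-fold. Its neighbour and partner Parp9 passed by adjusted p in both mutants, at 0.57 in Dicer iKO and 0.77 in Dgcr8 iKO.

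Of the antiviral effectors, Eif2ak2, the kinase PKR that halts translation on double-stranded RNA, was at 12.4, 10.5 and 11.8 CPM in Dgcr8 controls and 24.7, 28.8 and 28.8 CPM in Dgcr8 iKO. These groups did not overlap (1.24 ± 0.15, adjusted p = 7.55e-05). In the Dicer libraries it was at 15.9, 15.2 and 12.8 CPM against 15.5, 24.3 and 19.6 CPM, where the lowest mutant lay inside the control range (0.44 ± 0.19, adjusted p = 0.146).
Oas1a, an oligoadenylate synthetase, was at 1.65, 2.95 and 1.56 CPM in Dgcr8 controls and 3.18, 5.31 and 8.74 CPM in Dgcr8 iKO (1.49 ± 0.41, adjusted p = 0.0121). It was at 2.73, 2.67 and 3.26 CPM in Dicer controls and 4.11, 6.26 and 6.82 CPM in Dicer iKO (0.98 ± 0.29, adjusted p = 0.0467). Neither pair of groups overlapped, but the values are low. The Dicer difference missed the adjusted p in 9 of 11 alternatives, DESeq2 (0.0547) among them, and the Dgcr8 call was lost without Dgcr8 control replicate 1 (adjusted p = 0.0555) or replicate 3 (adjusted p = 0.0554).

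Among the ligases and antigen processing genes, Trim30a, a TRIM protein that restrains inflammatory signalling, stood at 10.1, 9.52 and 8.10 CPM in Dgcr8 controls and 20.35, 20.02 and 19.45 CPM in Dgcr8 iKO. The 3 mutants were nearly equal (1.11 ± 0.16, adjusted p = 0.00026). In Dicer iKO it was at 14.8, 25.7 and 16.7 CPM against 12.2, 9.49 and 10.05 CPM (0.85 ± 0.24, adjusted p = 0.0399).
Tap1, a subunit of the peptide transporter of class I presentation, was at 13.1, 12.6 and 14.5 CPM in Dgcr8 controls and 31.9, 43.1 and 30.7 CPM in Dgcr8 iKO (1.39 ± 0.17, adjusted p = 7.16e-05). In Dicer iKO it was at 17.9, 29.7 and 31.0 CPM against 15.2, 13.8 and 15.3 CPM (0.83 ± 0.21, adjusted p = 0.0318). All mutants were above all controls in both lines.

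Of the sensors, Zbp1, which senses left-handed nucleic acid, was at 1.29, 3.35 and 1.66 CPM in Dgcr8 controls and 3.76, 6.83 and 5.01 CPM in Dgcr8 iKO (1.33 ± 0.38, adjusted p = 0.0155). The call was lost without Dgcr8 control replicate 1, Dgcr8 control replicate 3 or Dgcr8 iKO replicate 2 (adjusted p 0.0724, 0.0652 and 0.0593). In Dicer iKO nerves Zbp1 was at 3.85, 4.87 and 2.51 CPM against 1.58, 1.87 and 1.76 CPM (1.09 ± 0.35, adjusted p = 0.0603). The RNA sensors Ifih1 (MDA5) and Ddx58 (RIG-I) were higher by adjusted p in Dgcr8 iKO at 0.44 and 0.58, and had values of 0.41 and 0.23 in Dicer iKO. Dhx58 (LGP2) had values of 0.17 and 0.09.

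Of the signalling genes, Ifngr2 rose in Dgcr8 iKO as well, from 40.8, 38.2 and 35.6 CPM to 78.1, 65.8 and 97.1 CPM. The mutants were spread more widely than in the Dicer line but lay above every control (1.07 ± 0.15, adjusted p = 0.000238), and without Dgcr8 iKO replicate 3 the change was 0.91, under 2-fold. Irf1 was at 26.1, 26.0 and 25.8 CPM in Dgcr8 controls and 41.6, 45.8 and 31.8 CPM in Dgcr8 iKO, a non-overlapping difference short of 2-fold (0.61 ± 0.15, adjusted p = 0.0065).
Stat2 (19.4, 26.3 and 16.0 against 18.5, 22.3 and 17.9 CPM) overlapped between the groups, with a log2 fold change of -0.07. Isg15 (5.18, 7.10 and 2.29 against 3.65, 5.69 and 3.38 CPM) overlapped too, with a log2 fold change of -0.17 ± 0.39 (adjusted p = 0.747). The Isg15 protease Usp18 and the regulator Irf7 had values of -0.37 and -0.48, not called. Trim25 (0.84), the immunoproteasome subunit Psmb8 (0.69) and Ifitm3 (0.46) were higher by adjusted p, and the members past neither threshold lay between -0.82 (Ifit1) and 0.87 (Mx1). Ifi202b and Oas3 did not pass the count filter.

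Ifi204 was at 8.71, 10.9 and 13.9 CPM in Dgcr8 controls and 14.35, 20.02 and 25.7 CPM in Dgcr8 iKO, which did not overlap (0.83 ± 0.24, adjusted p = 0.014) but stayed under 2-fold. The summed macrophage markers were also above controls, at 5603, 3183 and 7950 CPM in Dgcr8 iKO replicates 1 to 3 and 4597, 7171 and 8556 CPM in Dicer iKO replicates 1 to 3. Dicer iKO replicate 1, the lowest of its group in these markers, was also the lowest of its group for Tap1, Eif2ak2, Trim30a, Oas1a and Parp14. It was, however, the highest for Ifngr2, and Ifi204 and Zbp1 were lowest in replicate 3. In Dgcr8 iKO, replicate 2 was the lowest in the markers but the highest for Tap1 and Zbp1. It was not the lowest for Parp14, Eif2ak2 or Oas1a, though it was the lowest for Ifngr2. The part of macrophages in these changes was not tested.

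**Figure D2:**
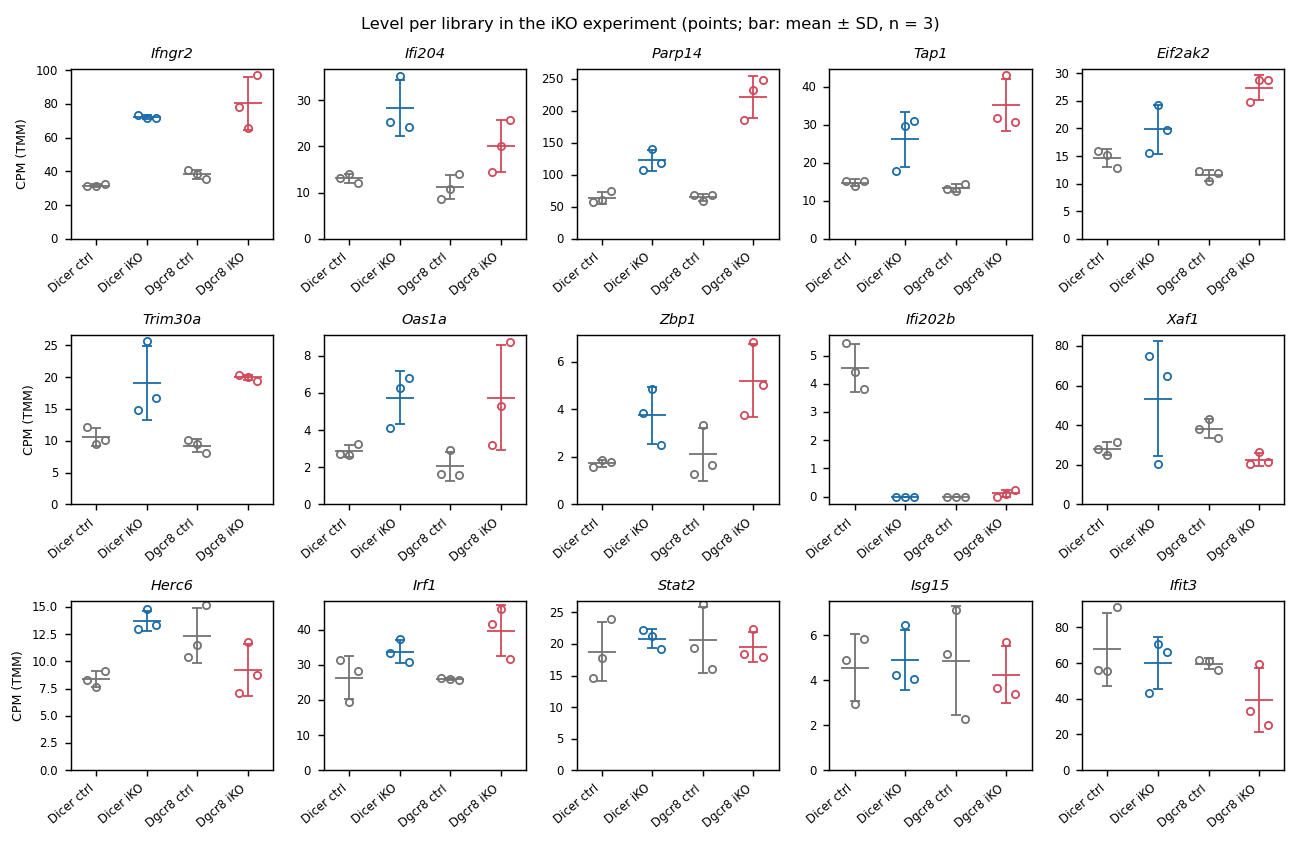
CPM (y axis, TMM-scaled) of 15 members, those called in either mutant with Xaf1, Herc6, Irf1, Stat2, Isg15 and Ifit3, in each library of Dicer controls, Dicer iKO, Dgcr8 controls and Dgcr8 iKO; points are libraries and the bar is the mean with SD (n = 3). Parp14 and Tap1 separate mutants from controls in both lines, Isg15 and Stat2 do not, and Ifi202b is at 3.80 to 5.45 CPM in Dicer controls and at most 0.233 CPM in the other groups.

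Whether the lines differed was tested as an interaction, the Dgcr8 iKO change minus the Dicer iKO change, over all 12 libraries. By edgeR 0 of 40 members passed an adjusted p of 0.05 in either direction, against 0.00738% of all genes up and 0.00738% down. An unadjusted p under 0.05 was reached by 5 members, against 13.7% of all genes, and DESeq2 called 2 members up (Ifi202b and Parp14, 0.85, adjusted p = 0.018) and 1 down (Xaf1, -1.68, adjusted p = 0.0326). The median difference over members was 0.08 (all genes -0.01). The 5 members were Ifi202b, Parp14, Herc6, Xaf1 and Eif2ak2, and Ifi202b passed without Dicer control replicate 3 (adjusted p = 0.0414).

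Parp14 differed by 0.83 (95% interval 0.40 to 1.27, adjusted p = 0.148) and Eif2ak2 by 0.81 (0.31 to 1.31, adjusted p = 0.184), both larger in Dgcr8 iKO. Herc6, a large ubiquitin ligase of the ISG15 system in mouse, differed by -1.14 (-1.77 to -0.51, adjusted p = 0.157), being at 8.33, 7.62 and 9.10 CPM in Dicer controls, 13.0, 14.8 and 13.4 CPM in Dicer iKO, 10.4, 11.5 and 15.2 CPM in Dgcr8 controls and 7.06, 11.8 and 8.74 CPM in Dgcr8 iKO. It thus lay above controls in every Dicer iKO library and overlapped its controls in the Dgcr8 line. Herc6 and Xaf1 are singled out after their values were seen.
Xaf1, a pro-apoptotic antagonist of caspase inhibitors, was at 28.0, 25.0 and 31.4 CPM in Dicer controls and 74.9, 20.5 and 64.9 CPM in Dicer iKO. Its Dgcr8 values were 37.9, 43.2 and 33.8 CPM in controls and 20.4, 26.3 and 21.2 CPM in iKO (-0.76 ± 0.15, adjusted p = 0.00187). The excess sat in 1 transcript of Xaf1, ENSMUST00000146233, with expected counts of 449.81 and 378.17 in Dicer iKO replicates 1 and 3, 50.79 in replicate 2 and 96.61, 87.96 and 102.0 in controls, while ENSMUST00000142921 had 7.77 to 16.29 in Dicer iKO and 18.41 to 36.0 in controls. Dicer iKO replicates 1 and 3 thus lay far above replicate 2, and the difference of -1.70 (-2.71 to -0.68, adjusted p = 0.172) passed without replicate 2 (-2.07, adjusted p = 0.0077).

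For the other called members the intervals of the difference held 0. They ran from -0.52 to 0.26 for Ifngr2, -0.96 to 0.42 for Ifi204, -0.34 to 0.86 for Trim30a and -0.03 to 1.17 for Tap1. For Irf1 the interval was -0.28 to 0.79. For Zbp1 it was -0.98 to 1.45, for Oas1a -0.67 to 1.68 and for Isg15 -1.50 to 0.96, so that for these 3 low genes a 2-fold difference between the lines lay within the interval.

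**Figure D3:**
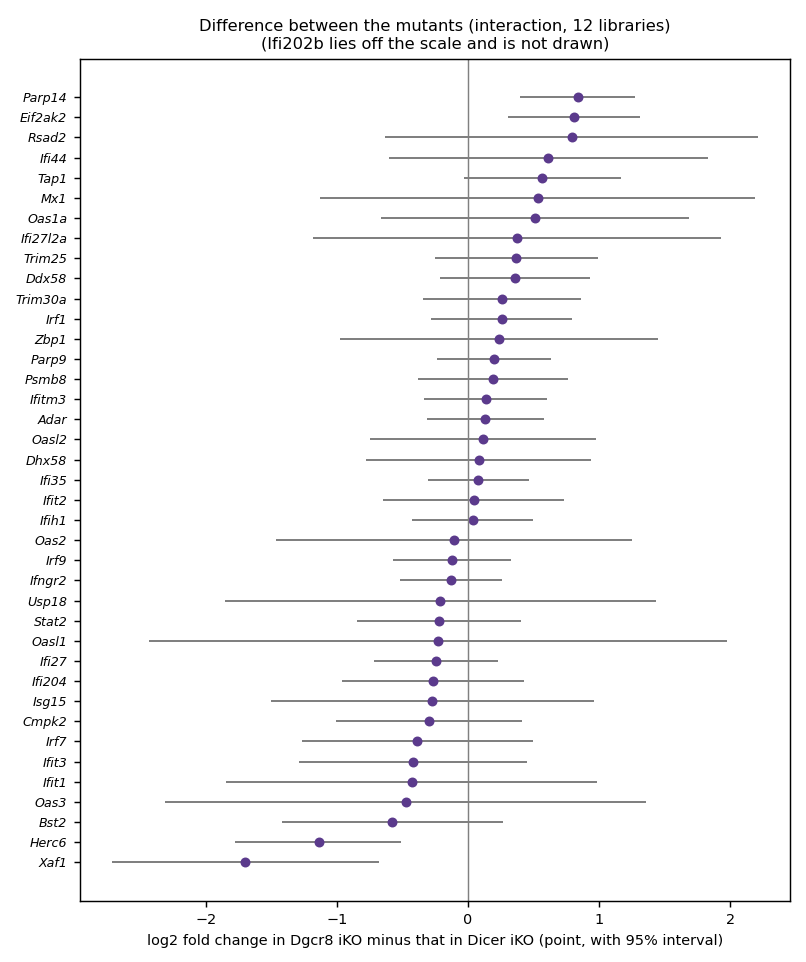
Difference in log2 fold change between the lines (Dgcr8 iKO minus Dicer iKO, x axis; points with 95% intervals, 12 libraries) for each tested member except Ifi202b, which is off the scale. The intervals of Parp14 and Eif2ak2 lie right of 0 and those of Herc6 and Xaf1 left of 0, and none passed an adjusted p of 0.05.

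Ifi202b, an Ifi200 family protein that lacks the signalling domain of its relatives, was read almost wholly in 1 group of the iKO experiment. It was at 5.45, 4.41 and 3.80 CPM (38, 33 and 28 counts) in the 3 Dicer controls and at 0 in the 3 Dicer iKO and the 3 Dgcr8 controls. Dgcr8 iKO nerves held 0, 1 and 2 counts, and in the crush experiment Ifi202b did not pass the count filter. The 3 Dicer controls thus stood apart from every other iKO experiment library, mutant or control. Against the limit of 3 counts per library, Ifi202b was at least 10.2-fold lower in Dicer iKO (adjusted p = 0.00336) and at least 12.8-fold lower in Dgcr8 controls than in Dicer controls.
Between the control groups, 1 of 38 members fell, Ifi202b (adjusted p = 0.0451), against 0.0312% of all genes down, and 0 rose, against 0% of all genes up. With the replicate block, or without any Dgcr8 control library or Dicer control replicate 2, the Ifi202b call was lost (adjusted p 0.138 to 0.201). Beside the 0 rising members, 5 had an unadjusted p under 0.05 in either direction under edgeR, with no share of all genes computed. The median was -0.03 over members and 0.01 over all genes. Ifi202b is known to differ between inbred strains and to be scarcely expressed in C57BL/6, and strain at this locus and genotype cannot be told apart between the Dicer groups.

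Ifi202b lies at chr1:173962568-173982744 on GRCm38, in the Ifi200 cluster that also holds Ifi204 (chr1:173747293-173766943). Of the other Ifi200 genes of the cluster, none of those tested in Dicer iKO shared its fall, and Ifi206, Ifi208, Ifi213 and Ifi214 were not tested there. In Dicer iKO, 5 of 7 tested rose (Ifi207, 1.37; Ifi209, 2.05; Ifi211, 1.16; Mndal, 1.08; Aim2, 2.29), against 7.37% of all genes, and in Dgcr8 iKO 5 of 8 rose, against 13.4% of all genes (Ifi205, 2.17; Ifi207, 1.20; Ifi209, 1.74; Ifi211, 1.74; Aim2, 1.70). Aim2 is the DNA sensor of an inflammasome. Mndal overlaps its neighbours Ifi203 and Ifi211, and reads of these near-copies may be shared. For all genes of this cluster, Ifi204 among them, strain at the locus and genotype cannot be told apart between the Dicer groups.

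After nerve crush 28 of 40 members were not called against contralateral nerves, and the called ones went in both directions. Against contralateral nerves, 8 of 40 members rose (Ifi204, Ifi27l2a, Oas1a, Trim30a, Dhx58, Trim25, Oas2 and Mx1), against 14.6% of all genes, and 4 fell (Ifit3, Isg15, Ifit1 and Cmpk2), against 13.6%. Against uncrushed nerves, 7 of 39 rose (all of the first list save Mx1), against 15.3% of all genes, and 5 fell (Ifit3, Ifit1, Cmpk2, Rsad2 and Usp18), against 21.1%. Both comparisons use the same 4 crushed libraries. The median over members was 0.18 (all genes -0.06) against contralateral and 0.38 (all genes -0.03) against uncrushed nerves. The falls against uncrushed nerves rested on few libraries, with 3 left without crushed replicate 1 and 2 without uncrushed replicate 2.

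Ifi204 had the largest increase against contralateral nerves, and Oas1a against uncrushed ones. Ifi204 was at 10.8, 11.1 and 10.4 CPM in uncrushed, 11.2, 6.77, 7.63 and 10.3 CPM in contralateral and 29.1, 51.2, 37.2 and 48.6 CPM in crushed nerves. Every crushed nerve exceeded every control, by 2.08 ± 0.19 on the log2 scale against contralateral (adjusted p = 2.52e-07) and by 1.83 ± 0.19 against uncrushed nerves (adjusted p = 4.69e-06). Ifi27l2a, a small membrane protein of the Ifi27 family, was at 2.48, 2.41, 1.66 and 2.46 CPM in contralateral and 11.9, 9.25, 7.19 and 10.2 CPM in crushed nerves (1.96 ± 0.20, adjusted p = 9.42e-07). Uncrushed nerves were at 6.15, 1.65 and 1.07 CPM, a wider spread that still lay below the crushed values (1.45 ± 0.41, adjusted p = 0.00746). Without uncrushed replicate 1 the Ifi27l2a change was 2.71.
Oas1a was at 0.854, 1.29 and 0.611 CPM in uncrushed, 1.19, 1.09, 1.08 and 0.591 CPM in contralateral and 3.67, 4.89, 3.20 and 3.81 CPM in crushed nerves (1.82 ± 0.25, adjusted p = 1.82e-05 against contralateral, and 1.93 ± 0.30, adjusted p = 0.000138 against uncrushed). Its relative Oas2 rose by 1.33, while Oas3, Oasl1 and Oasl2 had values of 0.20, -0.01 and 0.14. The ligases Trim25, which activates RIG-I, and Trim30a rose by 1.40 ± 0.14 and 1.69 ± 0.17, and Dhx58 rose by 1.44 ± 0.24, while Ifih1 and Ddx58 had smaller values of 0.53 and 0.25.

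The falling members were led by Ifit3. It was at 40.7, 63.7 and 33.9 CPM in uncrushed, 38.9, 39.2, 43.9 and 31.1 CPM in contralateral and 10.1, 10.1, 7.89 and 8.93 CPM in crushed nerves. All 4 crushed values lay far below the lowest control, at -2.18 ± 0.12 on the log2 scale against contralateral (adjusted p = 1.16e-09) and -2.43 ± 0.19 against uncrushed nerves (adjusted p = 3.52e-07). Ifit1, which binds viral RNA with an uncapped or unmethylated end, fell from 8.91, 12.1, 11.3 and 6.40 CPM in contralateral to 4.55, 3.83, 2.20 and 3.81 CPM in crushed nerves (-1.56 ± 0.23, adjusted p = 3.73e-05). Uncrushed nerves were at 9.14, 13.6 and 6.56 CPM, likewise all above the crushed ones.
Isg15 was at 1.56, 2.96, 2.54 and 1.67 CPM in contralateral nerves (17, 38, 26 and 17 counts) and 0.787, 0.801, 0.699 and 0.803 CPM in crushed nerves (9, 9, 7 and 8 counts), a non-overlapping fall of -1.63 ± 0.30 (adjusted p = 0.000272). Uncrushed nerves were at 2.05, 2.59 and 0.611 CPM, the last below all crushed values, and Isg15 did not pass the count filter of that comparison. Cmpk2, a mitochondrial nucleotide kinase encoded beside Rsad2, fell by 1.14 on the log2 scale against contralateral and by 1.55 against uncrushed nerves, while Rsad2 had values of -0.98 and -1.05. Without uncrushed replicate 2, Cmpk2 did not pass (-0.69, adjusted p = 0.138), nor did Rsad2 (-0.63, adjusted p = 0.0796).

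None of the 5 signalling members was called after crush. Irf1 was at 8.20, 6.35 and 5.34 CPM in uncrushed, 8.54, 9.72, 9.20 and 7.29 CPM in contralateral and 9.36, 12.9, 11.8 and 8.93 CPM in crushed nerves, overlapping with contralateral values (0.16, adjusted p = 0.312) but above all uncrushed ones (0.55, adjusted p = 0.0173). Stat2 was at 12.4, 15.4, 13.7 and 12.5 CPM in contralateral, 11.8, 13.8 and 10.2 CPM in uncrushed and 12.3, 14.1, 10.1 and 10.9 CPM in crushed nerves (-0.33 ± 0.12, adjusted p = 0.0325, against contralateral). Ifngr2 was at 25.3, 29.6, 30.1 and 26.9 CPM in contralateral, 27.1, 25.1 and 20.9 CPM in uncrushed and 35.9, 45.1, 45.2 and 37.0 CPM in crushed nerves, higher in all 4 crushed nerves but by less than 2-fold (0.40 ± 0.09, adjusted p = 0.00159).
Eif2ak2 (0.97), Tap1 (0.94), Ifitm3 (0.71), Parp9 (0.66) and Parp14 (0.55) were higher than in contralateral nerves by adjusted p but by less than 2-fold. Ifi35 (-0.71), Ifit2 (-0.40) and Xaf1 (-0.41) were lower in the same way. Adar, Bst2, Ifi27, Ifi44, Irf7, Irf9, Herc6 and Usp18 were not past the threshold, with values from -0.51 to 0.26.

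**Figure D4:**
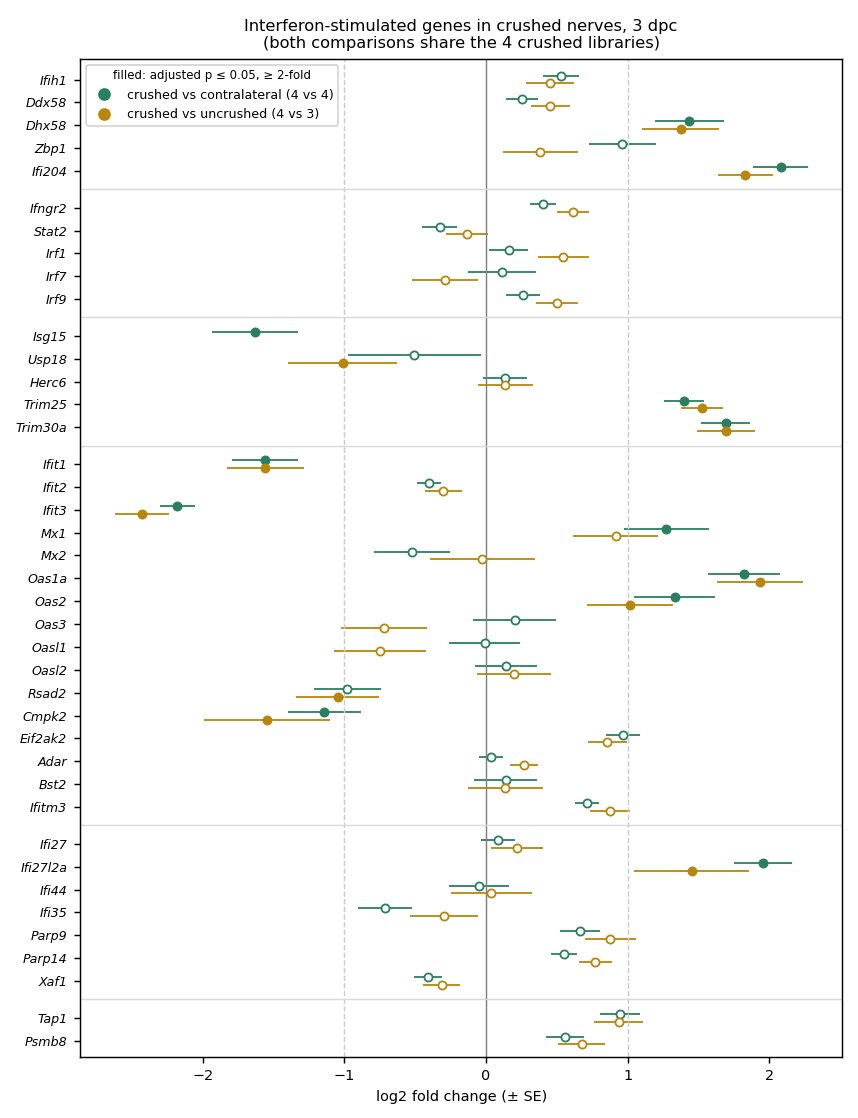
Log2 fold change of each tested member (points, ± SE, x axis) in crushed nerves (n = 4) against contralateral (n = 4) and uncrushed nerves (n = 3), grouped by role on the y axis; filled points passed an adjusted p of 0.05 and 2-fold, and both comparisons use the same crushed libraries. Ifi204 lies at 2.08 and 1.83, and Ifit3 at -2.18 and -2.43.

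Of the 4 members that fell against contralateral nerves, 3 of 4 with a promoter entry held the ISRE printed above (Isg15, Ifit1 and Ifit3), and of the 8 that rose, 2 of 3 with an entry did (Trim30a and Oas1a). Among the 28 others tested it was 8 of 22. The motif thus occurred among members that rose, fell and were not called. The macrophage markers rose and the SC markers fell together with these changes, as given above, and their part in the result was not tested. Crushed replicate 1, the lowest of its group in macrophage markers (970.9 CPM against 1714 to 2231 CPM), was also the lowest for Ifi204, but the highest for Ifi27l2a.

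**Figure D5:**
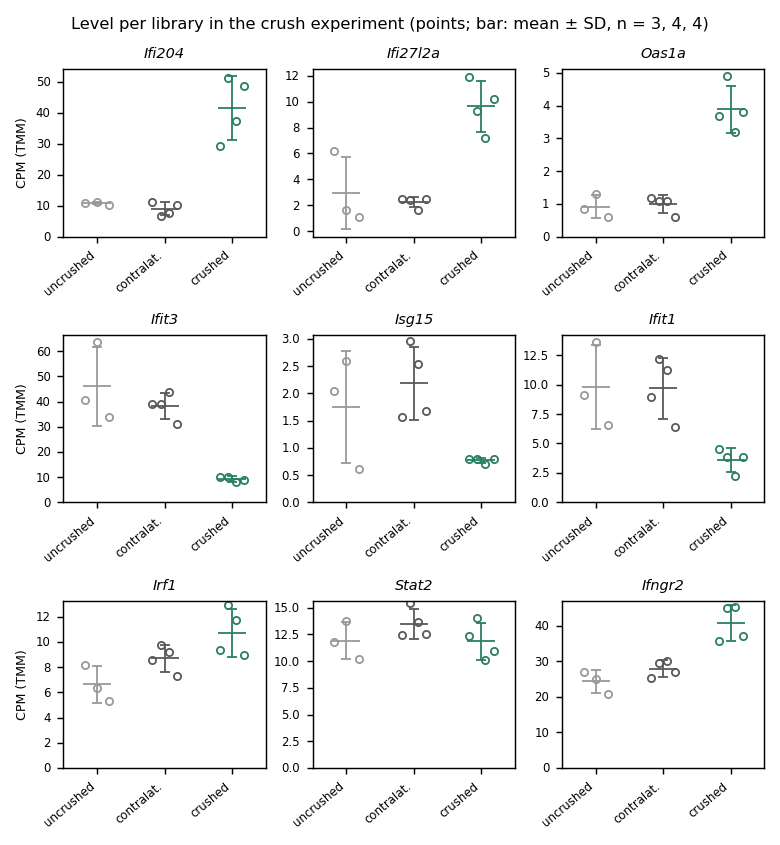
CPM (y axis, TMM-scaled) in each library of uncrushed, contralateral and crushed nerves for the members with the 3 highest and 3 lowest changes against contralateral nerves and for Irf1, Stat2 and Ifngr2; points are libraries and the bar is the mean with SD (n = 3, 4 and 4). Crushed values of Ifit3 (7.89 to 10.1 CPM) lie below all controls and those of Ifi204 (29.1 to 51.2 CPM) above them.

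Between contralateral and uncrushed nerves, by edgeR 0 of 40 members rose and 0 fell, against 0% of all genes in each direction. An unadjusted p under 0.05 was held by 3 members, and its share over all genes was not computed. DESeq2 also called 0 members (of all genes, 20 down). Oas3 was nonetheless lower without overlap, at 1.38, 1.56, 1.08 and 1.48 CPM in contralateral and 3.08, 2.35 and 2.44 CPM in uncrushed nerves (-1.01, 95% interval -1.61 to -0.41, adjusted p = 0.135), as was Zbp1 (-0.67, adjusted p = 0.191). Leaving out uncrushed replicate 2 gave 95 genes down, 0 of them members. The median was -0.06 over members and -0.02 over all genes.

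The rest of the pathway was read on fixed lists. All 21 interferon ligand genes were listed and 0 passed the count filter in any comparison, with at most 9 counts in any library and at most 1.07 CPM, and 1 (Ifnl3) was at 0 in every library. Reads were so few that no change could be tested, with 19 counts over all 23 libraries for Ifnb1 and 23 for Ifng. Of 7 receptor and kinase genes tested, 0 were called in either mutant. Of all genes, 7.37% rose and 1.64% fell in Dicer iKO, and 13.4% rose and 6.99% fell in Dgcr8 iKO. With 7 genes, a count of 0 is near those shares. Ifnar2, the type I receptor's long chain, was nonetheless higher by adjusted p at 0.82 ± 0.09 in Dicer iKO and 0.56 ± 0.11 in Dgcr8 iKO, and Ifnar1 at 0.52 and 0.42. Ifngr1 had values of 0.35 and 0.25, and Il10rb of 0.52 and 0.25, Jak1 of 0.37 and 0.56, Tyk2 of 0.61 and 0.48 and Jak2 of -0.09 and -0.15. After crush Jak1 rose in both comparisons (1.44 and 1.65), and Ifnar1 (1.18) and Ifnar2 (1.16) rose against uncrushed nerves and stood at 0.93 and 0.89 against contralateral nerves. Of all genes, 14.6% rose against contralateral and 15.3% against uncrushed nerves. Against contralateral and uncrushed nerves Ifngr1 had values of 0.73 and 0.69, Il10rb of 0.45 and 0.72, Tyk2 of 0.13 and 0.21 and Jak2 of -0.20 and -0.15. Ifnlr1, the lambda receptor chain, was not tested except against uncrushed nerves, where it had a value of -0.75 in crushed nerves.

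For the lists that follow, the shares of all genes that rose were 7.37% in Dicer iKO, 13.4% in Dgcr8 iKO, and 14.6% against contralateral and 15.3% against uncrushed nerves after crush. Among other interferon transcription factors, Irf5, Irf8 and Nlrc5, which act in myeloid cells and on class I genes, rose in Dicer iKO (1.83, 2.42 and 1.67) and Dgcr8 iKO (1.97, 3.02 and 1.73), making 3 of 7 tested in each. Irf8 stood at 18.7, 10.2 and 7.20 CPM in Dicer controls, 48.0, 65.5 and 78.5 CPM in Dicer iKO, 7.18, 5.76 and 6.65 CPM in Dgcr8 controls and 56.5, 36.0 and 67.9 CPM in Dgcr8 iKO. Within each mutant group Irf8 ranked the 3 libraries in the same order as the macrophage sum, whose part in the result was not tested. After crush against contralateral nerves 4 of 7 rose (Irf5, 2.48; Irf8, 2.29; Ciita, 1.82; Nlrc5, 1.08), and 3 of 7 against uncrushed nerves, where Nlrc5 stood at 0.81, under 2-fold.

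Among 11 further sensors and adaptors, 4 rose in Dicer iKO (Tlr7, 2.37; Tlr9, 2.22; Aim2, 2.29; Ikbke, 1.14). In Dgcr8 iKO 6 rose (Tlr7, 2.68; Tmem173, 2.27; Aim2, 1.70; Ikbke, 1.53; Tlr9, 1.45; Cgas, 1.13), where Cgas and Tmem173 are the DNA sensor cGAS and its adaptor STING. In crushed nerves 7 rose against contralateral nerves and 8 against uncrushed ones, with Tmem173 at 2.97 and 3.09. Of 9 negative regulators, 0 were called in Dicer iKO and 2 rose in Dgcr8 iKO (Socs1, 1.91; Socs3, 1.001), both feedback inhibitors of the Jak kinases. After crush 4 rose against contralateral nerves (Socs1, Socs3, Ptpn2 and Rnaseh2b) and 3 against uncrushed nerves, where Rnaseh2b stood at 0.93.
The GTPases induced by interferon gamma gave 0 calls of 14 tested in Dicer iKO and 0 of 16 in Dgcr8 iKO, and 2 of 15 fell after crush against contralateral nerves (Gbp6, -1.21; Tgtp2, -1.12), against 13.6% of all genes. Against uncrushed nerves 0 of 15 were called, with overlapping groups for Gbp6 (-0.99, adjusted p = 0.0298) and Tgtp2 (-0.78, adjusted p = 0.0718). Of 8 class I genes, H2-D1 rose in both mutants (1.07 in Dicer iKO and 1.21 in Dgcr8 iKO), and Tap2 (1.04) and Erap1 (1.41) rose in Dgcr8 iKO. These lists were chosen with earlier results of the same libraries in view.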

How the data were processed

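Per the labels and the study's methods, the authors trimmed reads (Trimmomatic), aligned them (STAR) and estimated transcript abundance (RSEM). They deposited per-transcript expected counts and TPM for 23 libraries on GRCm38 identifiers. The transcripts' expected counts were added up for each gene, then rounded, and TPM was used for levels between genes only. Columns in FPKM were not used. Counts were filtered with filterByExpr (minimum count 10), TMM-scaled and tested with edgeR 4.0.16 (quasi-likelihood, R 4.3.3) over all genes passing the filter, each comparison fitted on its own groups and the interaction on the 12 iKO experiment libraries. Adjusted p-values are Benjamini-Hochberg, and a call needed an adjusted p of at most 0.05 and at least 2-fold (for the interaction, the adjusted p alone). The edgeR fit and the calling rule were tested on simulated counts for Dicer iKO, for crushed against contralateral nerves and for the interaction. The limit of 3 counts covers counting error only.

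The members and lists were chosen with earlier results of these data known. Genes named with every library's value were the members called in a mutant comparison or the interaction, Ifi204, Ifi202b, Irf1, Stat2, Ifngr2 and Isg15, and the 3 highest and 3 lowest members after crush. Genes outside the set were named from fixed lists where called in a mutant comparison, ligands and receptors in any case. After crush, called genes of the Ifi200 and class I lists and most called sensors were not named. No replicate library was a copy of another, with chi-square over degrees of freedom of 3.95 to 40.5 in 27 pairs. By the labels iKO libraries used TruSeq stranded and crush libraries SMARTer stranded pico kits, while the methods give TruSeq for all. The uncrushed replicate number 3 was taken from the title. Alternatives were RLE scaling, no count filter, DESeq2 1.42.0, a replicate block, all groups in 1 fit and each library left out.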

Additional observations from a re-analysis of the deposited data

Results flagged for a closer look

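In the crush experiment, 7 of 81 tested combinations of a member and a group of 4 libraries held a library far from the other 3 (gap over range above Dixon's 95% critical value, which chance exceeds in about 1 in 20 groups). Contralateral replicate 3 was the lowest of its group in 4 of them: Ifitm3 at 32.7 CPM (others 36.3 to 36.9), Ifi27l2a at 1.66 CPM (2.41 to 2.48), Ifi44 at 1.96 CPM (2.85 to 2.88) and Parp14 at 48.8 CPM (54.8 to 55.9). Crushed replicate 2 was the highest for Ifih1 at 17.2 CPM (12.6 to 13.0) and Parp14 at 105 CPM (78.2 to 82.1). Crushed replicate 3 was the lowest for Isg15 at 0.699 CPM (0.787 to 0.803), where 7 counts stood against 8 to 9.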

How the results depend on the processing

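Each of the 80 single-member results was recomputed under the alternatives, 958 in all, of which 851 kept direction and side of the threshold, 107 kept direction but not the threshold and 0 reversed. Leaving out each library in turn moved the members that rose in Dicer iKO between 2 and 7 and those that fell between 1 and 2, and in Dgcr8 iKO between 5 and 8 and between 0 and 3. Against contralateral nerves the ranges were 8 to 10 and 4 to 5, against uncrushed nerves 6 to 9 and 2 to 5, for the controls 0 to 1 falling, and for the interaction 0 to 1 in each direction (Ifi202b passed without Dicer control replicate 3, adjusted p = 0.0414). Falling members in Dicer iKO numbered 2 under DESeq2 and 2 with all groups in 1 fit, adding Rsad2. The interaction gave 2 members up and 1 down under DESeq2. Without a count filter 13 members rose against uncrushed nerves, where the median over all genes was -0.385 rather than -0.032. The cause of these shifts was not tested. Same-numbered libraries did not deviate together in every pair (correlations -0.19 to 0.209), and the labels do not tie a number to a mouse, so the numbers were not taken as pairs; with the replicate block the control comparison gave 0 falling members, the members higher by adjusted p alone in Dicer iKO numbered 3 in place of 9, all genes called in Dicer iKO numbered 548 up and 92 down in place of 961 and 214, and the other counts of called members stayed within 1.5 times. The 3 to 4 libraries a group and counts under 10 for Isg15 after crush limit what could be detected.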

Other observations

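Other genes outside the set were on in some libraries and off in others, and they are given as values chosen after they were seen. Gbp2b, a guanylate-binding protein induced by interferon gamma, was at 15.4, 12.7 and 0 CPM in Dgcr8 controls, 13.3, 0.759 and 0 CPM in Dgcr8 iKO and 0 CPM in all Dicer libraries, so that it varied within the genotype groups. Its relative Gbp10 was at 0.287, 2.14 and 7.06 CPM in Dicer controls and 0, 0 and 0.278 CPM in Dicer iKO. Klrb1c, the NK cell receptor NK1.1, was at 0.144, 0.268 and 0 CPM in Dicer controls and 2.52, 2.26 and 2.51 CPM in Dicer iKO (log2 fold change 3.99, adjusted p = 0.0061), but at 2.82, 7.10 and 0.104 CPM in Dgcr8 controls and 1.76, 3.89 and 3.73 CPM in Dgcr8 iKO.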
